A study of Homo sapiens with 3 samples.

Results

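The 10 genes described here are transcription factors and effectors of the ATF4 stress response. They comprise 6 basic leucine zipper (bZIP) transcription factors, ATF4, ATF5, ATF3, DDIT3 (also called CHOP), CEBPB and CEBPG, and 4 effectors, TRIB3, CHAC1, DDIT4 and SESN2. The members were found by name, as every non-control probe whose gene name on the array equalled one of these symbols, which gave 14 of the 41000 probes and 10 of the 30982 gene names. The names were chosen by the signals of these same arrays, with the ratios of MB to the monolayers already known, so those ratios are given as a description, and nothing is supported by them.

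Total RNA came from 3 populations of 1205Lu, a human melanoma line obtained from a lung metastasis that its parent line, WM793, formed as a xenograft in a mouse. The original monolayer (OM) had grown for 14 days in RPMI-1640 with 10% FCS. The melanoma bodies (MB), substrate-attached 3D spheroids that this line forms, had been kept for 14 days in human embryonic stem cell (hESC) medium and were collected by detaching them physically. The new monolayer (NM) had spent the same 14 days as melanoma bodies and then 10 days in RPMI-1640 with 10% FCS, and residual bodies were removed before its RNA was prepared. The hESC medium was based on DMEM/F-12 and held KnockOut serum replacement at 20%, and per the study's methods L-glutamine, 2-mercaptoethanol and nonessential amino acids as well. OM and NM therefore shared their last medium, whereas MB differed from both in medium and in growth form at once. The study also reports that hESC medium had to be renewed daily. It reports slower growth of the cells in that medium, with a larger G1/G0 fraction. Each population was 1 RNA sample on 1 array, so medium, its renewal, growth form, growth rate and the single culture cannot be told apart. No test across samples was possible.

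ATF4 is the transcription factor at the end of the integrated stress response. Kinases that sense amino acid shortage, misfolded protein in the endoplasmic reticulum (ER), heme shortage or double-stranded RNA phosphorylate the translation factor eIF2, which slows protein synthesis in general while translation of the ATF4 mRNA rises. ATF4 pairs with C/EBP family proteins on composite C/EBP-ATF response elements and switches on genes for amino acid supply, further transcription factors such as ATF3 and DDIT3, and effectors that restrain growth signalling or, under lasting stress, favour cell death.

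The composite element has the consensus TGATGNAA, and it was looked for on both strands in RefSeq promoter windows (build GRCh38.p14) that reach from 250 bases before to 50 bases after each annotated start. The windows of 3 of the 10 members, ATF3, CEBPG and CHAC1, held a match, against 4.46% of the 27305 genes in the table. Members had from 1 to 3 windows each, and a gene with more windows has more room for a match. Counted by window, 3.62% of all 35116 windows held one. Neither of the other letter strings searched, the palindromic cyclic AMP response element TGACGTCA and the related TGACGCAA, was in a window of any member, against 2.25% and 0.648% of genes. No stretch of 8 bases can match more than one of these strings. A match is a description of the letters and not a site shown to be bound. The stretches that hold the matches are shown so that the element can be seen in place, read 5′ to 3′ on the gene's own strand, which is the plus strand for all 3, with the match in capitals. For CHAC1 the 250 bases before the start (chr15:40953221-40953470) hold it on the opposite strand, as TTGCATCA, at positions -209 to -202 from the start. For ATF3 the 250 bases before the first of its annotated starts (chr1:212565157-212565406) hold it at positions -191 to -184. For CEBPG the match lies at positions -42 to -35 from the second of its annotated starts, and 30 bases around it are shown (chr19:33374060-33374089).
CHAC1: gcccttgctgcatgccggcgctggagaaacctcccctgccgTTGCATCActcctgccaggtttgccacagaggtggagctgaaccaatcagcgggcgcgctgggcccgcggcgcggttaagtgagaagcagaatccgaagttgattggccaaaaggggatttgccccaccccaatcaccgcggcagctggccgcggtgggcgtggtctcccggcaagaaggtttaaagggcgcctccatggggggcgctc
ATF3: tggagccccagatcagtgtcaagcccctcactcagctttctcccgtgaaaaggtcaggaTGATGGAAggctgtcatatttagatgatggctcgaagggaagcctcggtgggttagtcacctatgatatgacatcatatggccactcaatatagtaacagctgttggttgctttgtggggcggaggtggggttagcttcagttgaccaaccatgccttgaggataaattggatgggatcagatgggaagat
CEBPG: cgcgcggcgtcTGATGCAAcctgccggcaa

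The scanner's processed signal is in arbitrary units (a.u.) on a linear scale. Each array was scaled so that the mean of the housekeeping genes GAPDH, ACTB and HSP90AA1 equalled that of OM, which divided MB signals by 0.978 and NM signals by 0.877. Signals below are scaled in this way, ratios between arrays are given as log2 or as folds, and each gene is represented by its brightest probe. Over the probes printed in 10 spots, the technical SD of a log2 ratio from single spots was 0.072 to 0.074, which is 1.05-fold. This is the spread within arrays and says nothing of the spread between cultures. Between 64.7% and 71.0% of probes were well above background on an array. All 23 spots that carry the members were well above background on every array, with 0 saturated and 0 marked as outliers. The scanner software put the error of these spots at 10% to 10.9% of their signal. The array's melanocyte lineage markers MITF, SOX10, S100B, CSPG4 and MCAM were well above background in all 3 populations. Of the pigment genes, TYR and TYRP1 were at background in each, whereas DCT (62.8 to 66.7 a.u., unscaled) and PMEL (209 to 286 a.u.) were well above it on every array. The defining markers of leukocytes (PTPRC), endothelium (CDH5), keratinocytes (KRT5 and KRT1) and fibroblasts (COL1A1, COL1A2 and LUM) were not well above background on any array. The summed signal of each of these lists lay between 38.5 and 233 in OM, 52.9 and 486 in MB and 53.8 and 192 in NM. Of the 11 melanocyte lineage markers 8 were well above background on all 3 arrays. Their summed signal was 62375 in OM, 100953 in MB and 38493 in NM, unscaled, and its part in the results was not tested.

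Signals of 9 of the 10 members were lower in MB than in either monolayer, and in these 9 the order was NM above OM above MB. ATF5 was the exception, with the order MB above OM above NM. The median member was 3.45-fold lower in MB than in OM and 9.46-fold lower in MB than in NM. Every member differed by more than 2 technical SD in each of the comparisons. That SD over replicate spots, 1.05-fold, is smaller than the scanner software's error of 10% to 10.9% per spot. The smallest differences are therefore less certain than the technical SD alone shows. The order of CEBPB between MB and OM turned with its second probe, and that of ATF4 between NM and OM turned under quantile normalization, as given with these genes. Because RNA of whole cultures was measured, fewer cells expressing a gene and less RNA per cell cannot be told apart.

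**Figure D1:**
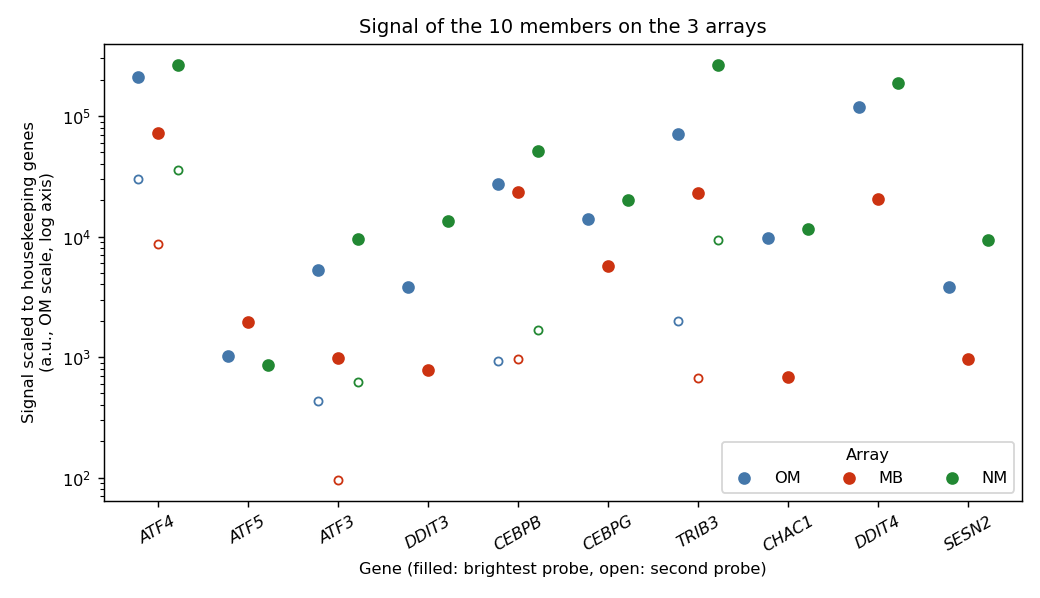
Signal of the 10 members in OM, MB and NM, in a.u. scaled to the housekeeping genes on a log axis, with 1 point per array and probe; filled points are the brightest probe of a gene and open points its second probe. MB is the lowest array for 9 members and the highest for ATF5, except that the second probe of CEBPB is lowest in OM; levels of different probes are not comparable.

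ATF4 itself, the factor that gives the response its name, had a signal of 209955 in OM, 72855 in MB and 265621 in NM (probe at chr22:38243077-38243136, build hg17). MB was the low array, at 34.7% of OM and 27.4% of NM, while the monolayers were close to each other. On the log2 scale MB over OM was -1.53, MB over NM -1.87 and NM over OM 0.34. A second probe, 702 bases nearer the gene's 5′ end, gave -1.80, -2.04 and 0.24, with its MB signal read from another scan gain than its OM and NM signals. Distances between probes are between hg17 genomic positions, here and below, and any intron between them is included. The difference between the monolayers was the only one of this gene to turn direction with the scaling, since NM over OM was -0.054 under quantile normalization. The array measures the mRNA, and the translational step that controls ATF4 protein is not seen by it.

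ATF5, a close relative of ATF4 that is likewise controlled by translation, went the other way. Its only probe (chr19:55128566-55128625, hg17) read 1020.1 in OM, 1940 in MB and 851 in NM. The body sample was thus 1.90-fold above OM and 2.28-fold above NM, and the log2 ratio of NM over OM was -0.26. Among the known genes tested (those with a RefSeq mRNA accession, provisional names included), 6.62% were at least 2-fold higher in MB than in OM and 11% were at least 2-fold higher in MB than in NM. ATF5 passed that limit against NM and was short of it against OM.

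ATF3, a stress-inducible factor of the ATF/CREB family that acts as a repressor in many settings, had a signal of 5226 in OM, 973 in MB and 9527 in NM (chr1:209182251-209182310, hg17). MB was 5.37-fold below OM and 9.79-fold below NM, and NM was 1.82-fold above OM. Its second probe, 1019 bases nearer the gene's 5′ end in the genome, was 4.57-fold lower in MB than in OM and 6.54-fold lower than in NM. The direction was shared by both probes, while the 5-fold limit against OM was passed by the brighter probe alone.

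DDIT3, whose protein CHOP favours cell death when ER stress lasts, read 3790 in OM, 779 in MB and 13400.4 in NM. Its probe covers chr12:56197467-56197793 in hg17, a stretch of 327 bases for a 60-base oligonucleotide, so the oligonucleotide joins parts that are apart in the genome. The log2 ratio of -4.11 for MB over NM, 17.2-fold, was the lowest of the 10 members in that comparison, although CHAC1 lay within the technical spread of it. NM was also 3.54-fold above OM. Against OM the gene stood just short of the 5-fold limit, 4.87-fold lower in MB, next to ATF3 just past it.

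CEBPB, a C/EBP factor that dimerises with ATF4 and also serves inflammatory and differentiation programmes, was measured with the most spots, 10 per array. Its scaled signal was 27014 ± 739 a.u. in OM, 23464 ± 534 in MB and 51405 ± 1083 in NM (SD over 10 spots of 1 array, chr20:48242396-48242455, hg17). The spots spanned 25464 to 28182 in OM, 22289 to 24080 in MB and 49479 to 52994 in NM, so no array overlapped another. This spread is that of printing and scanning and not of cultures. On the log2 scale MB over OM was -0.20, MB over NM -1.13 and NM over OM 0.93. A second probe in 1 spot, 1076 bases nearer the 5′ end, gave 0.075, -0.79 and 0.87, so the small difference between MB and OM turned with the probe, and the 2-fold limit against NM was passed by the brighter probe alone. The main feature of CEBPB, by both probes, was the higher signal in NM.

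For the 4 members with a pair of probes, ATF4, ATF3, CEBPB and TRIB3, the log2 ratios of the pair for MB over OM differed by 0.27, 0.23, 0.28 and 0.018. Over the 4016 known genes with a measured pair, the median difference was 0.14 and 1 pair in 10 differed by over 0.64, so these pairs were within the usual range. The other 6 members rest on 1 probe in 1 spot.

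**Figure D2:**
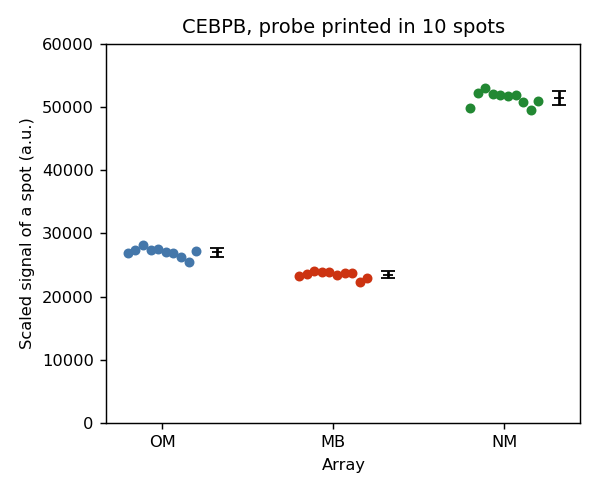
Scaled signal in a.u. of the 10 spots of the brighter CEBPB probe on each array, with the mean and SD over spots at the right of each group. The spots of the arrays do not overlap, with MB just below OM and NM highest, whereas the second probe of the gene was slightly higher in MB than in OM.

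CEBPG, a short C/EBP protein without a transactivation domain of its own that partners ATF4, read 14031 in OM, 5703 in MB and 20261 in NM (chr19:38562533-38562592, hg17). MB was 2.46-fold below OM and 3.55-fold below NM, and NM was 1.44-fold above OM. These ratios lay near those of ATF4, and against NM the pair differed by less than the technical spread.

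Of the effectors, TRIB3, a pseudokinase that restrains AKT and feeds back on ATF4 and CHOP, read 70359 in OM, 23181.5 in MB and 266207 in NM (chr20:326107-326166, hg17). MB was 3.04-fold below OM and 11.5-fold below NM. The NM signal was 3.78-fold above OM, the highest such ratio among the members, with DDIT3 within the technical spread of it. A second probe, 1251 bases nearer the gene's 5′ end in the genome, gave log2 ratios of -1.58, -3.81 and 2.22 for MB over OM, MB over NM and NM over OM, beside -1.60, -3.52 and 1.92 for the brighter one.

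CHAC1, an enzyme that breaks down glutathione, read 9743 in OM, 687 in MB and 11586 in NM (chr15:39035814-39035873, hg17). MB was at 7.05% of OM and 5.93% of NM. The log2 ratio of -3.83 for MB over OM, 14.2-fold, was the lowest of the 10 members and stood beyond the technical spread from the next, DDIT4. The monolayers differed by only 1.19-fold, so CHAC1 was low in MB without being much higher in NM than in OM.

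DDIT4 (REDD1), an inhibitor of mTORC1 signalling that also answers to hypoxia and glucocorticoids, read 119034 in OM, 20482 in MB and 188716 in NM (chr10:73705369-73705428, hg17). MB was 5.81-fold below OM and 9.21-fold below NM, and NM was 1.59-fold above OM. SESN2, a sestrin that holds mTORC1 back when leucine is short and is a p53 target as well, read 3809 in OM, 972 in MB and 9444 in NM (chr1:28292336-28292395, hg17). MB was 3.92-fold below OM and 9.72-fold below NM, and NM was 2.48-fold above OM. Against NM these genes and ATF3 followed one another within the technical spread.

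To set the members beside the known genes of the array, a difference was counted at 5-fold, the limit of the study's methods, or at 2-fold, with over 100 a.u. on the brighter array. In MB against OM, 3 of 10 members were at least 5-fold lower (CHAC1, DDIT4 and ATF3), and 0.716% of the 11599 known genes were. At 2-fold the count was 8 of 10 members beside 3.72% of known genes. None was at least 5-fold higher, beside 1.1% of known genes. The median log2 ratio was -1.79 over the members and 0.15 over the known genes. Since the members were named with these ratios known, nothing is read from the contrast with the background.

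In MB against NM, 6 of 10 members were at least 5-fold lower (DDIT3, CHAC1, TRIB3, ATF3, SESN2 and DDIT4), beside 1.57% of 11626 known genes. At 2-fold 9 of 10 members were lower, beside 9.21%, and ATF5 was higher. None was 5-fold higher, beside 1.62%. The median log2 ratio was -3.24 over the members and 0.053 over the known genes. The members below 5-fold in this comparison were ATF4, CEBPG and CEBPB among those lower in MB, all bZIP factors, and ATF5, which was higher. The comparison shares the MB array with the previous one, so these are not independent.

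In NM against OM, 3 of 10 members were at least 2-fold higher (TRIB3, DDIT3 and SESN2), beside 4.6% of 11492 known genes, and 0 of 10 passed 5-fold, beside 0.679%. In the other direction 0 of 10 passed 2-fold, beside 3% of known genes. The median log2 ratio was 0.77 over the members and 0.11 over the known genes. Between CHAC1 at 0.25 and CEBPB at 0.93 on the log2 scale, neighbouring members in the order of this ratio did not differ beyond the technical spread, so that order is not resolved step by step. Gaps beyond it separated ATF5 from CHAC1 below, and CEBPB from SESN2 and SESN2 from DDIT3 above.

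**Figure D3:**
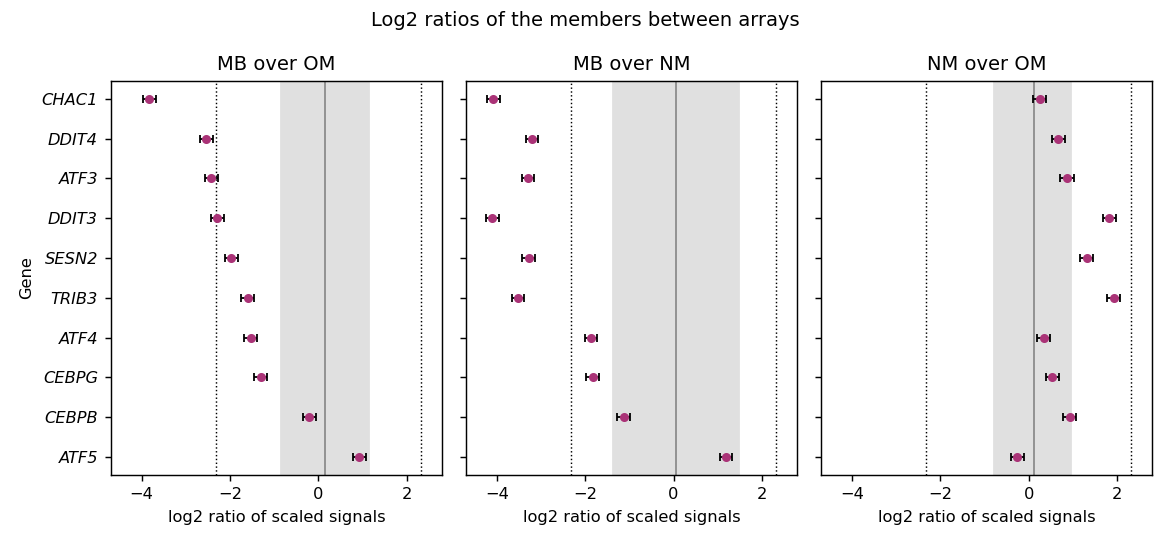
Log2 ratio of scaled signals of the 10 members in the 3 comparisons, with bars of 2 technical SD to either side of a single spot; dotted lines mark 5-fold, the grey line and band the median and the 5th to 95th percentile of known genes. For MB over OM CHAC1, DDIT4 and ATF3 lie past 5-fold; for MB over NM 6 members do; CEBPB in MB over OM (0.075 by its second probe) and ATF4 in NM over OM (-0.054 under quantile normalization) turned direction in an alternative.

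The members can also be counted by the whole pattern over the arrays. Of the 11547 known genes measured on every array, 24.8% had the order NM above OM above MB, which 9 of 10 members had. Signals in MB were 2-fold or more below both monolayers for 2.71% of known genes and 8 members, the exceptions being CEBPB and ATF5. They were 5-fold or more below both for 0.277% of known genes and 3 members, CHAC1, DDIT4 and ATF3. The 2-fold limit below both monolayers, together with NM 2-fold or more above OM, was met by 0.511% of known genes and 3 members, TRIB3, DDIT3 and SESN2. TRIB3, DDIT3 and SESN2 thus had the most signal in NM relative to OM, whereas the monolayers were nearly level for CHAC1 and ATF4.

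**Figure D4:**
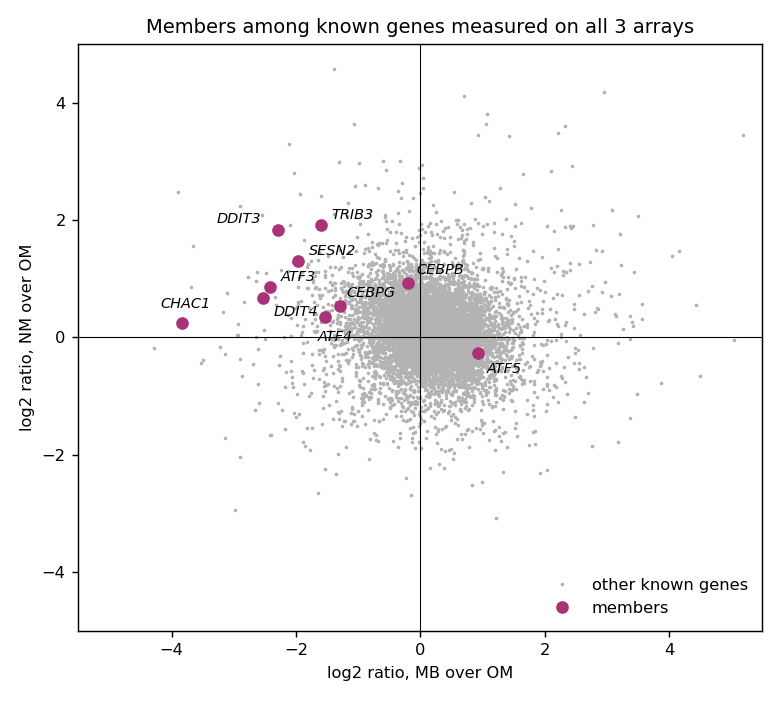
Log2 ratio of NM over OM against log2 ratio of MB over OM for each known gene measured on all 3 arrays (grey) and the 10 members (purple). All members but ATF5 lie at the upper left, with CEBPB near 0 on the horizontal axis (0.075 by its second probe), and ATF4 just above 0 on the vertical axis (-0.054 under quantile normalization).

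The median profile of the members, as mean-centred log2 signals, was 0.24 in OM, -1.73 in MB and 1.34 in NM. Among the members SESN2 lay closest to it, at a Euclidean distance of 0.19 over the 3 arrays, then ATF3 at 0.34, and ATF5 lay farthest, at 3.07. The 10 other known genes closest to this profile were ICAM1, BMP6, MYL4, RP5-821D11.2, RDM1, ASNS, VLDLR, CASP1, HDAC9 and ARHGAP26, at distances of 0.0984 to 0.239. ASNS, asparagine synthetase, and VLDLR, a lipoprotein receptor, are themselves on the list of amino acid response genes below. With only 3 arrays many genes can share a profile, and the likeness is a description.

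With the housekeeping scaling, the mRNAs of the eIF2 kinases, the sensors upstream of ATF4, were not lower in MB than in either monolayer. The activity of the kinases is not seen by the array. Of 10 genes for eIF2 kinases, phosphatase subunits and their partners, 0 were past 2-fold between MB and OM. Of known genes, 6.62% were at least 2-fold higher and 3.72% at least 2-fold lower. The median log2 ratio was 0.19 for the list, beside 0.15 for known genes. The kinases EIF2AK1 (HRI), EIF2AK2 (PKR), EIF2AK3 (PERK) and EIF2AK4 (GCN2) stood at 0.22, 0.52, 0.39 and 0.093 for MB over OM. Scaling to the 75th percentile and to spike-ins moved every MB over OM log2 ratio by -0.19 and -0.28. EIF2AK4 turned negative under both, and EIF2AK1 under spike-in scaling. The lowest and highest of the list were EIF2S1, the eIF2 alpha subunit, at -0.38, and PPP1R15B, a constitutive phosphatase subunit, at 0.76. The partners GCN1, NCK1 and IMPACT were at 0.28, 0.15 and 0.052. PPP1R15A (GADD34), the stress-induced phosphatase subunit that undoes eIF2 phosphorylation, was the one gene of the list past 2-fold elsewhere. It read 2190 in OM, 2390 in MB and 7420 in NM before scaling, and its log2 ratio was 0.16 against OM, -1.79 against NM, and 1.95 between the monolayers.

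Other ATF, CREB and C/EBP factors, relatives of the bZIP members, had medians near 0 in MB against either monolayer. Of 20 listed relatives 19 were measured, with medians of 0.010 in MB over OM and -0.16 in MB over NM on the log2 scale, and BATF was at background. Their median for NM over OM was 0.45, beside 0.11 for known genes. At least 2-fold higher in NM were 2 of 19, beside 4.6% of known genes. At 2-fold 2 were lower in MB than in OM and 5 were lower in MB than in NM. The shares of known genes were 3.72% and 9.21%. JDP2, a repressor of the AP-1 and ATF families, was at -1.93 and -2.54, and CEBPD, an inflammation-inducible C/EBP factor, at -1.53 and -2.66. CEBPA, a differentiation factor, was at -0.96 against OM and -1.07 against NM. NFIL3, a bZIP repressor, was at -0.24 against OM and -1.88 against NM, with a log2 ratio of NM over OM of 1.64. The fifth was CREB3L2, at -1.17 for MB over NM. The highest ratios for MB over OM were those of CREB1, 0.89, and CREB5, 0.83. The remaining relatives, ATF1, ATF2, ATF6, ATF6B, ATF7, BATF2, BATF3, CREB3, CREB3L1, CREB3L2, CREM, CEBPE and DBP, lay between -0.51 and 0.54 in that comparison.

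The relatives of the effectors lay on the other side of 0 where they were past 2-fold. TRIB2, a pseudokinase of the same family as TRIB3, read 2604 in OM, 12247 in MB and 1450.3 in NM before scaling, which is 4.81-fold higher in MB than in OM and 7.58-fold higher than in NM. SESN3, a sestrin like SESN2, was 2.40-fold and 2.31-fold higher in MB than in OM and NM. The log2 ratio for MB over OM was 0.57 for TRIB1, 0.098 for SESN1 and 0.032 for CHAC2, and DDIT4L was at background. Within both the tribbles and the sestrin family, the gene counted as an ATF4 effector was thus lower in MB and another family member was higher.

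The amino acid response genes, which code for amino acid synthesis, uptake and tRNA charging among other functions and lie downstream of ATF4, are the list nearest the members in function. Of 42 listed genes 38 were measured in MB and OM, and 21 were at least 2-fold lower in MB, 3 of them at least 5-fold, with 0 at least 2-fold higher. The median log2 ratio was -1.14, beside -1.79 for the members. Against NM 30 of 39 were at least 2-fold lower in MB and 12 at least 5-fold, with 1 higher, and the median was -1.86, beside -3.24. Of known genes, 3.72% were at least 2-fold lower in MB than in OM, 0.716% at least 5-fold lower and 6.62% at least 2-fold higher. Against NM these shares were 9.21%, 1.57% and 11%. In the list, NM was at least 2-fold above OM for 9 of 39, beside 4.6% of known genes. The lowest ratios for MB over OM were those of STC2, a secreted glycoprotein, at -3.69, and PSAT1, a serine synthesis enzyme, at -2.63. The highest were those of SLC38A2, an amino acid transporter, at 0.68, and ALDH18A1, a proline synthesis enzyme, at 0.55. This list was likewise chosen with results of these arrays known, and its direction is no independent evidence.

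The ER chaperone arm of the unfolded protein response, the ATF6 and XBP1 side of the same stress, had a median near 0 for MB over OM. Of 24 genes 2 were at least 2-fold higher and 1 at least 2-fold lower in MB than in OM, beside 6.62% and 3.72% of known genes. The list's median log2 ratio was 0.14 against OM and 0.29 against NM. Against NM, 2 were at least 2-fold higher and 3 at least 2-fold lower, beside 11% and 9.21% of known genes. HERPUD1, an ER membrane protein of the degradation machinery, was the lower one at -1.14, with XBP1, a bZIP factor, next at -0.86. DERL3 and DNAJC3, an ER co-chaperone, were the higher ones at 1.40 and 1.35. The list's median for MB over OM, 0.14, lay beside 0.15 for all known genes, and both turned negative under 75th percentile and spike-in scaling, which moved every log2 ratio by -0.19 and -0.28.

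Other programmes that reach single members were counted in the same way. Of 16 p53 target genes, a group to which SESN2 also belongs, 0 were past 2-fold between MB and OM, with a median of 0.10. GADD45A and FDXR were lowest at -0.84 and -0.62, and PHLDA3 and TP53INP1 were highest at 0.76 and 0.80. Against NM, 4 of these 16 were at least 2-fold higher in MB and 2 at least 2-fold lower, with a median of 0.16. Of 13 hypoxia response genes measured, a programme that also reaches DDIT4, 1 stood 2-fold or more below OM in MB, the collagen cross-linking enzyme LOX at -1.11, and the median was -0.083. PDK1 followed at -0.49, and P4HA1 and VEGFA were highest at 0.25 and 0.50. Against NM, 4 of these 13 were at least 2-fold lower in MB, with a median of -0.68. Of 16 immediate early genes, a group that responds to growth factors and stress as ATF3 does, 2 were at least 2-fold higher in MB than in OM, EGR1 at 1.33 and EGR2 at 1.09, and 2 were lower, FOSL2 at -1.29 and FOSL1 at -1.03. Against NM, 3 of 15 were higher and 3 lower at that limit. No list holds a member, and their medians for MB over OM lay between -1.14 and 0.57, against -1.79 for the members.

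**Figure D5:**
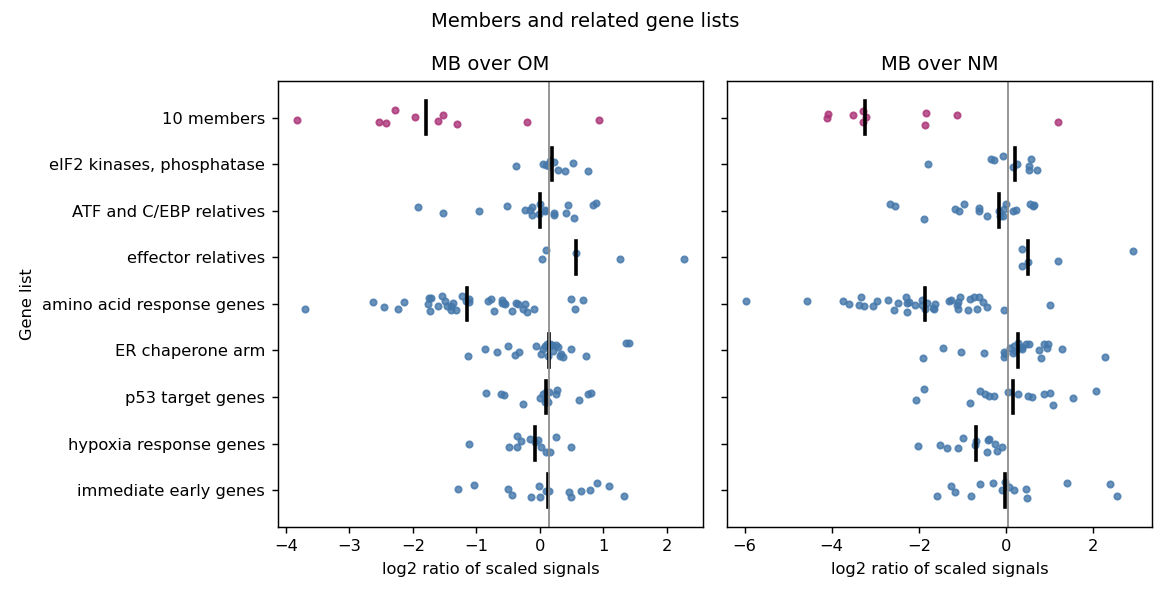
Log2 ratio of scaled signals in MB against each monolayer, with 1 point per gene, for the 10 members and the 8 related gene lists; black bars are list medians and the grey line is the median of known genes. The members (medians -1.79 and -3.24) and the amino acid response genes (-1.14 and -1.86) lie to the left, and the ER chaperone genes (0.14 and 0.29) near the grey line; CEBPB, the member near 0 in MB over OM, changed sign with its second probe.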

How the data were processed

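Expression was measured with 1-colour Agilent 4 × 44K whole human genome arrays of 60-base probes, 1 array for each of OM, MB and NM, on 1 slide. The authors deposited each spot's intensity as Feature Extraction (version 9.5.3.1) processed it. As tested on the files, this is the mean signal less a fitted background surface, over a detrending factor. Bright spots came from a second, low-gain scan scaled up, which applied to DDIT4 and the brighter ATF4, TRIB3 and CEBPB probes, for CEBPB on MB in 8 of 10 spots. The dimmer ATF4 probe came from that scan on OM and NM but not on MB, so its ratios of MB to the monolayers mix the scans. No scaling between arrays had been applied. Probe positions are hg17.

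Here control spots and outlier spots were left out, spots of a probe were averaged and arrays were scaled to the arithmetic mean of GAPDH, ACTB and HSP90AA1, from probes printed in 10 spots. The study's text names HSP90 without the gene. Arrays were compared as log2 ratios. With 1 array per population no p-value could be given, and precision is bounded by the number of arrays. The 14 alternatives comprised 6 scalings, 2 background corrections, outlier spots, filters on dim signals, the choice among a gene's probes and the deposited series value table, which equalled the scanner values (within 0.1%) for 100% of spots. The members and the gene lists were chosen with earlier results of these data known. The genes named are the members, the 10 known genes nearest their median profile, the relatives and sensors, and the 2 lowest and 2 highest genes of each list by MB over OM. TYR, KRT5 and the other cell type markers were named from a marker list. Python 3.11.15 with numpy 2.4.6 and pandas 2.3.3, and R 4.3.3 with limma 3.58.1, were used, and the counting was tested on simulated data. Promoter windows are RefSeq's, GRCh38.p14, and all 10 members matched by symbol.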

Additional observations from a re-analysis of the deposited data

How the results depend on the processing

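The count of members at least 5-fold lower in MB than in OM was 3 and lay between 2 and 4 over the 14 alternatives: it was 4, with DDIT3 added, under 75th percentile, quantile and spike-in scaling, and 2, without ATF3, where a gene was given by the median or the dimmest of its probes. The counts for MB against NM, 6 at 5-fold, and for NM against OM, 3 at 2-fold, were unchanged under every alternative. The median log2 ratio of the members for MB over OM, -1.79, was -1.98 with 75th percentile scaling, -1.88 with quantile normalization, -2.06 with spike-in scaling and -1.88 with the dimmest probe. That for MB over NM, -3.24, was -3.36, -3.06 and -3.38 under the same scalings, -3.09 without scaling, -3.34 with the geometric mean of the housekeeping genes, -3.10 with 6 housekeeping genes, -3.10 with the median over probes and -2.96 with the dimmest probe. That for NM over OM, 0.77, was 0.69 with 75th percentile scaling, 0.54 with quantile normalization, 0.58 without scaling, 0.63 with spike-in scaling, 0.61 with 6 housekeeping genes, 0.68 with the median over probes and 0.60 with the dimmest probe. Other scalings moved the median of all known genes by up to 0.28 on the log2 scale (MB over OM, spike-in scaling, to -0.13). Every scaling but quantile normalization moves all genes by 1 constant, so the members' distance from that median, -1.94, -3.29 and 0.65 in the 3 comparisons, is fixed by construction there and is no check. Under quantile normalization it was -1.92, -3.08 and 0.51. Directions held in all 14 alternatives for 9 of 10 members in MB over OM, 10 of 10 in MB over NM and 9 of 10 in NM over OM. The exceptions were CEBPB in MB over OM, 0.075 with the dimmest probe, and ATF4 in NM over OM, -0.054 under quantile normalization; for the first the probe itself is the change, and the cause of the second was not tested. A planned comparison of the members' protein sequences was not run. No paired analysis was possible because each population has 1 array. All members were well above background, but the background treatment still moved some ratios by more than the technical SD. CHAC1 in MB over OM, -3.83, was -3.70 with normexp background correction and -3.72 without background subtraction. ATF3 in MB over NM, -3.29, was -3.17 and -3.20 in the same order. The lack of replicate cultures limits every ratio.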
